A study of Mus musculus with 6 samples.

Results

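Messenger RNA levels of the cytosolic ribosomal protein genes were measured by RNA sequencing in mTECs (medullary thymic epithelial cells), which display the body's own antigens to maturing T cells. The genes were chosen by symbol: Rpl or Rps followed by a digit, together with Rpsa, Rplp0, Rplp1 and Rplp2, and without the S6 kinase genes and pseudogene symbols. This gave 83 of the 20443 genes in the tables, 51 of the large and 32 of the small ribosomal subunit, in 87 of 24981 rows. Of the 83, 75 encode standard subunits of the ribosome (45 large, 30 small; called core genes here). The other 8 are paralogs or carry a similar name. Rps27 and Rpl34 are listed only under joined symbols and are not among the 83.

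The cKO group held 3 mice of genotype Jmjd3fl/fl-Foxn1-cre (cKO_262, cKO_263, cKO_265). The Con group held 3 mice of genotype Jmjd3fl/fl (Con_253, Con_261, Con_264). All 6 were C57BL/6 mice aged 4 weeks and carried floxed alleles of Jmjd3, a histone H3 demethylase gene with the symbol Kdm6b, and each library came from a separate mouse by its number. Foxn1 is transcribed throughout the thymic epithelium, so Cre would be active in cortical epithelium as well as in mTECs. The Con mice carried no Cre, so an effect of the Cre construct and one of the loss of Jmjd3 cannot be told apart. Cells were sorted by flow cytometry, and cDNA made from total RNA was amplified with a whole-transcriptome kit before Illumina sequencing.

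A ribosome is built from ribosomal RNAs and 1 copy of nearly every ribosomal protein, so their genes are transcribed at high levels in most cells. Their mRNAs are typically short and begin with a run of pyrimidines (the terminal oligopyrimidine tract), through which mTOR signalling and the binding protein Larp1 adjust their translation and stability. mTECs turn over in the thymus, and the cells gated as mTECs include immature and mature stages.

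Levels are in FPKM, fragments per kilobase of a transcript after scaling for the mapped fragments of the library, and read depth is not known. Kdm6b had 11.09, 11.65 and 8.672 FPKM in cKO libraries, against 18.08, 17.06 and 9.998 FPKM in Con libraries. The groups overlapped, because the Con_264 value lay below 2 cKO values. The log2 fold change was -0.45 ± 0.23 (SE, limma adjusted p = 0.418). This level covers the whole gene and does not check the deletion, since the deleted exons were not given. The 10 mTEC markers found in the tables summed to between 6672 and 8236 FPKM in cKO and between 6601 and 7726 FPKM in Con libraries. The 14 thymocyte markers summed to 36.42 to 43.53 FPKM in cKO and 50.02 to 80.15 FPKM in Con libraries, and 5 of the 11 that were tested did not overlap between groups, all lower in cKO, against 11.9% of all tested genes. Rag1 was at most 0.283 FPKM in cKO and at most 0.714 FPKM in Con libraries. Myeloid and dendritic markers summed to 301 to 322 FPKM in cKO and 370 to 419 FPKM in Con libraries, a sum made up mostly of Lyz2. Aif1, of the same list and named after its values were seen, lay the other way, with 10.14 to 16.07 FPKM in cKO libraries, against 3.850 to 4.729 FPKM in Con libraries and a log2 fold change of 1.46 ± 0.20 (SE, limma adjusted p = 0.0555). Endothelial markers summed to 4.77 to 5.27 FPKM in cKO and 7.17 to 7.52 FPKM in Con libraries. Cortical epithelial markers summed to 869 to 1269 FPKM in cKO and 643 to 893 FPKM in Con libraries, and these sums overlapped. Of the 8 tested, 1 did not overlap with cKO above Con, against 9.59% of all tested genes. Another 2 did not overlap with cKO below Con, against 11.9% of all tested genes. The higher one was Tbata (501 to 728 FPKM in cKO, 307 to 468 FPKM in Con libraries). The lower ones were Cxcl12 (5.93 to 8.47 FPKM in cKO, 8.96 to 9.64 FPKM in Con libraries) and Dll4 (4.80 to 5.47 FPKM in cKO, 6.45 to 7.10 FPKM in Con libraries). These genes were named after their values were seen. Sums of B cell and fibroblast markers and the 1 erythroid marker found overlapped between groups. The part of these cell types in the results below was not tested. In bulk samples, fewer cells of a type and less RNA per cell cannot be told apart.

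The ribosomal protein genes had higher values in cKO than in Con mTECs across both subunits, although no single gene passed the test. Fold changes were cKO minus Con on the log2(FPKM + 1) scale, and a gene was called at a limma adjusted p under 0.05. Of the 83 genes, 81 had a mean of at least 0.5 FPKM and were tested. The median log2 fold change was 0.61 over 49 large subunit genes and 0.61 over 32 small subunit genes, against -0.04 over all 15720 tested genes. Of the 81, 80 had a higher value in cKO, against 45.3% of all tested genes. The exception among the tested genes was Rps19bp1, which is not a ribosomal protein but matched the rule. Rpl39l passed the filter only through cKO, with means of 0.828 FPKM in cKO and 0.452 FPKM in Con libraries. The untested Rpl3l lay the other way, with means of 0.252 FPKM in cKO and 0.581 FPKM in Con libraries. Without the filter, 81 of the 83 had a higher value in cKO and 2 a lower one.

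No large and no small subunit gene was called by limma, against 0.0763% of all tested genes called in either direction. At an unadjusted p under 0.05, 39 large and 25 small subunit genes were higher in cKO and none was lower, against 6.81% higher and 7.82% lower of all tested genes. In 38 large and 25 small subunit genes all 3 cKO values lay above all 3 Con values, against 9.59% of all tested genes. In none did all cKO values lie below all Con values, against 11.9% of all tested genes.

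**Figure D1:**
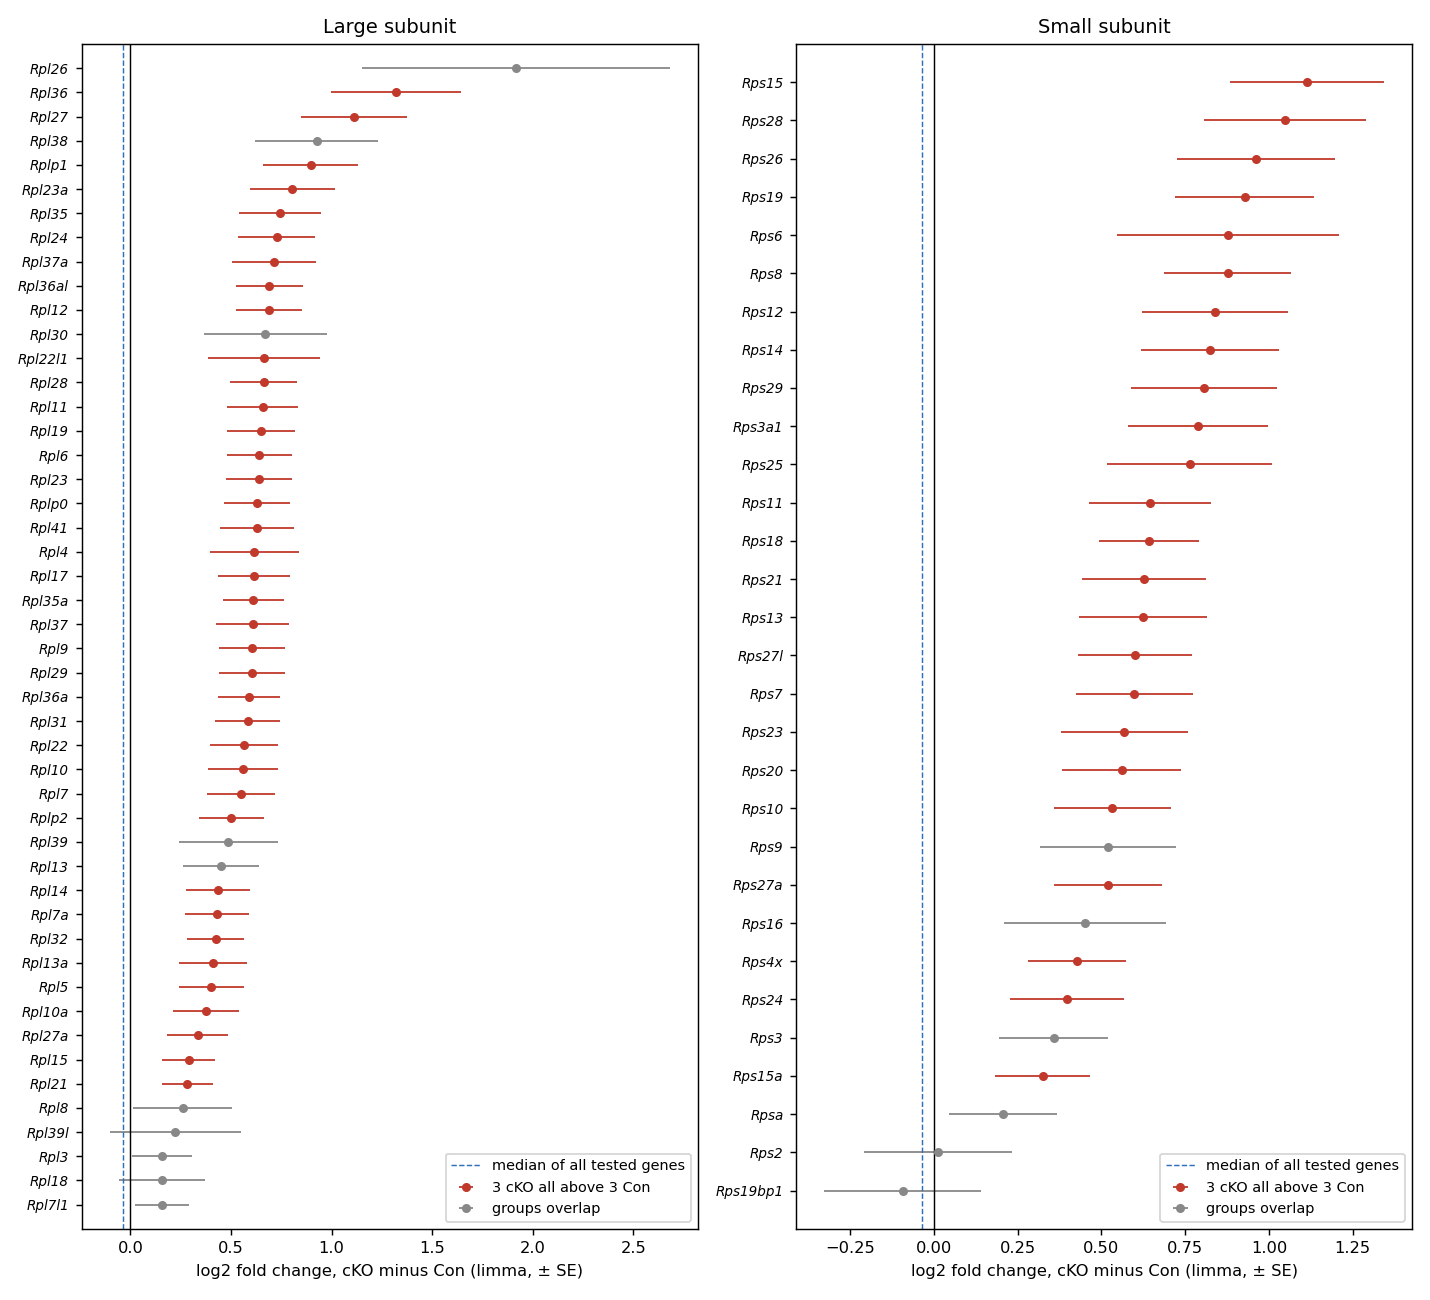
Log2 fold change (cKO minus Con, limma, bars ± SE, 3 libraries per group) of the large and small subunit genes that were tested, sorted within each panel; 3 members are not drawn. Red points are genes whose 3 cKO values all lie above the 3 Con values, grey points are genes whose groups overlap, and the dashed line is the median of all tested genes (-0.04). Nearly all points lie right of 0 on the deposited scale, but 10 of 82 tested genes lie below 0 when each library is scaled to the same sum and 7 of 81 after quantile normalization.

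The call depended on which genes were fitted. When the fit was restricted to the 843 genes averaging 100 FPKM or more, an alternative added after seeing the data, 15 of 43 large and 11 of 30 small subunit genes were called higher in cKO, against 9.85% of the 843. Rpl36, Rpl27, Rplp1, Rps15, Rps14, Rps28 and Rps19 were among these genes. With limma's arrayWeights, 43 large and 29 small subunit genes were called, but so were 1367 genes higher and 1658 lower over all genes, and the weights were uneven (0.26 for cKO_265, 8.72 for Con_261). Scaling each library to the same sum moved the median of all tested genes to -0.30, and the medians of large and small subunit genes to 0.31 and 0.32, with 24 of 50 and 18 of 32 genes without overlap, against 2.25% of all genes. After quantile normalization the medians were 0.19 and 0.22, with 20 of 49 and 12 of 32 genes without overlap, against 9.13% of all genes.

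Many abundant genes outside the ribosome were also higher in cKO. Of the 770 other genes averaging 100 FPKM or more, 77.8% had a higher value in cKO, 38.8% did not overlap with cKO above Con, and their median log2 fold change was 0.24. Of the 73 ribosomal protein genes at that level, 60 (82.2%) did not overlap, and their median was 0.61. By level, the median of other genes was lowest in the bin that starts at 1 FPKM (-0.12) and highest in the top bin (0.35). Of 1241 other genes with a transcript of at most 1000 bases, 21.0% did not overlap with cKO above Con, with a median of 0.18. The part of level and length in the result was not tested.

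**Figure D2:**
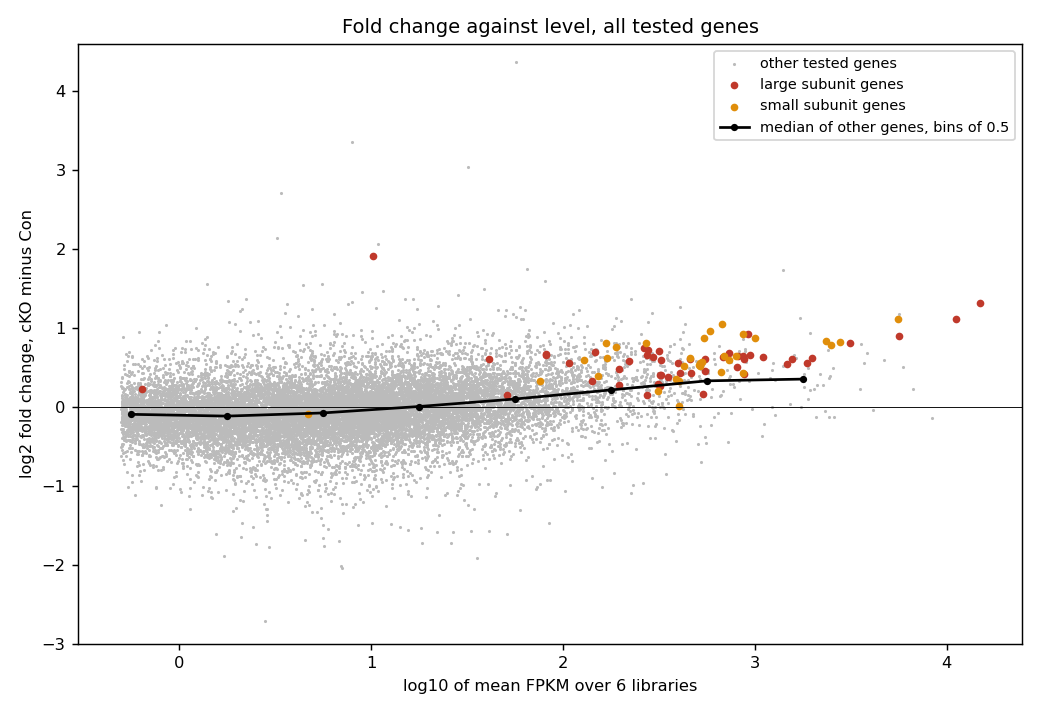
Log2 fold change (cKO minus Con) against the log10 of the mean FPKM over 6 libraries for all 15720 tested genes. Grey points are other genes, red points large subunit genes, orange points small subunit genes, and the black line the median of other genes in bins of 0.5 on the log10 scale. The line runs from -0.09 in the lowest bin to 0.35 in the highest, and most ribosomal protein genes lie above it.

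Summed over each subunit, the difference was visible in every library. The large subunit genes summed to 62377, 87783 and 78563 FPKM in cKO_262, cKO_263 and cKO_265, against 49817, 39271 and 33820 FPKM in Con_253, Con_261 and Con_264. The small subunit genes summed to 28044, 34960 and 36491 FPKM in the cKO libraries, against 22412, 18931 and 16495 FPKM in the Con libraries. Neither sum overlapped between groups. The large subunit sum averaged 76241 ± 12861 FPKM in cKO and 40970 ± 8133 FPKM in Con libraries (SD, n = 3 each), a ratio of 1.86. The small subunit sum averaged 33165 ± 4500 FPKM in cKO and 19279 ± 2974 FPKM in Con libraries (SD, n = 3 each), a ratio of 1.72.

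The library totals moved with these sums. All genes together summed to 619347 ± 31808 FPKM in cKO and 503908 ± 41114 FPKM in Con libraries (SD, n = 3 each). The ribosomal protein genes carried 42.6% of that difference, and the remaining genes had a ratio of cKO to Con of 1.15. As a share of the library sum, the 83 genes made up 15.51%, 19.36% and 17.95% in cKO libraries, against 13.3%, 11.5% and 10.9% in Con libraries. The shares did not overlap either, with means of 17.6% ± 1.95 in cKO and 11.9% ± 1.25 in Con (SD, n = 3 each).

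**Figure D3:**
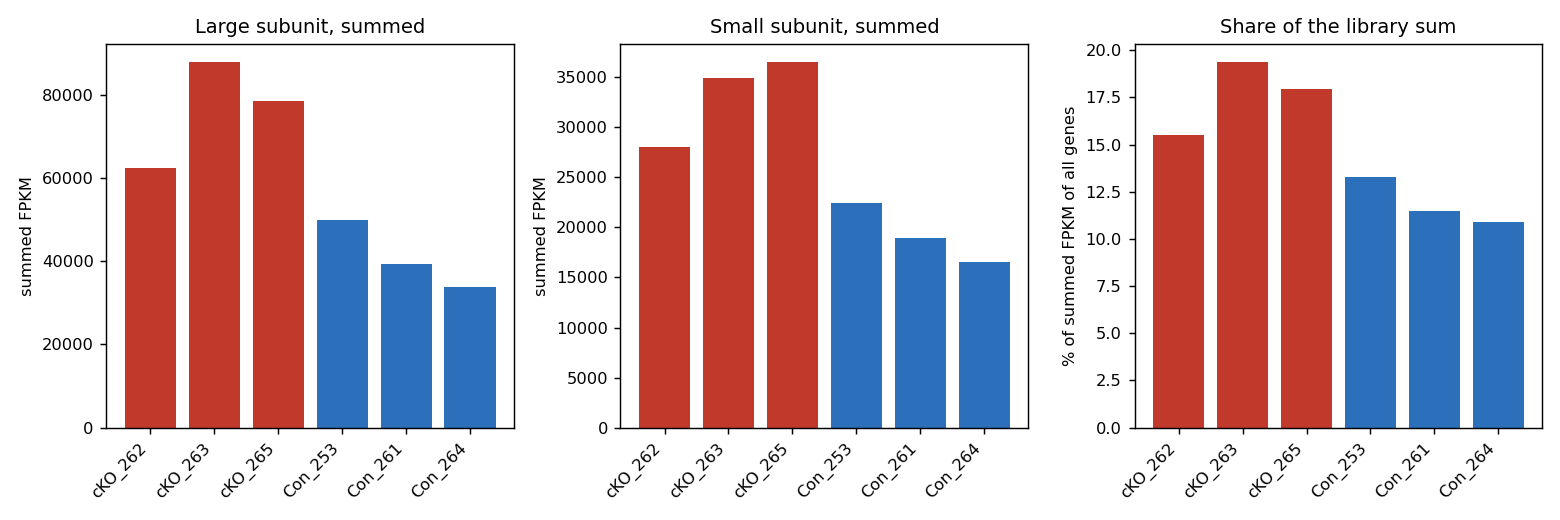
Summed FPKM of the large and of the small subunit genes, and the share of the library's summed FPKM held by all 83 genes, with 1 bar per library (cKO red, Con blue). Every cKO bar is above every Con bar in all 3 panels; cKO_262 and Con_253 are the closest pair, at 15.5% and 13.3% of the library sum.

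The balance of the subunits differed less than the sums. The ratio of large to small subunit sums was 2.22, 2.51 and 2.15 in cKO libraries, against 2.22, 2.07 and 2.05 in Con libraries. Con_253 lay inside the cKO range, so the groups overlapped. Much of the total sat in 3 large subunit genes: Rpl36, Rpl27 and Rplp1 held 39.7% ± 4.34 of the members' sum in cKO and 32.0% ± 3.45 in Con libraries (SD, n = 3 each). Without these 3, the remaining 80 genes summed to 65649 ± 8245 FPKM in cKO and 40713 ± 5418 FPKM in Con libraries (SD, n = 3 each), a ratio of 1.61.

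Levels per length spanned several orders of magnitude within the family. Of the 83 genes, 13 had a mean of at least 1000 FPKM and 10 a mean under 100 FPKM. The core genes ranged from 10.3 FPKM (Rpl26) to 14812 FPKM (Rpl36) with a median of 517 FPKM. Since ribosomal proteins are made in nearly equal numbers, and since these genes have many processed pseudogenes whose reads may be shared, the order of levels between genes is uncertain. For 8 members the locus in the tables was over 1.5 times as long as the RefSeq gene, most of all Rps15, so their values may include neighbouring genes.

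**Figure D4:**
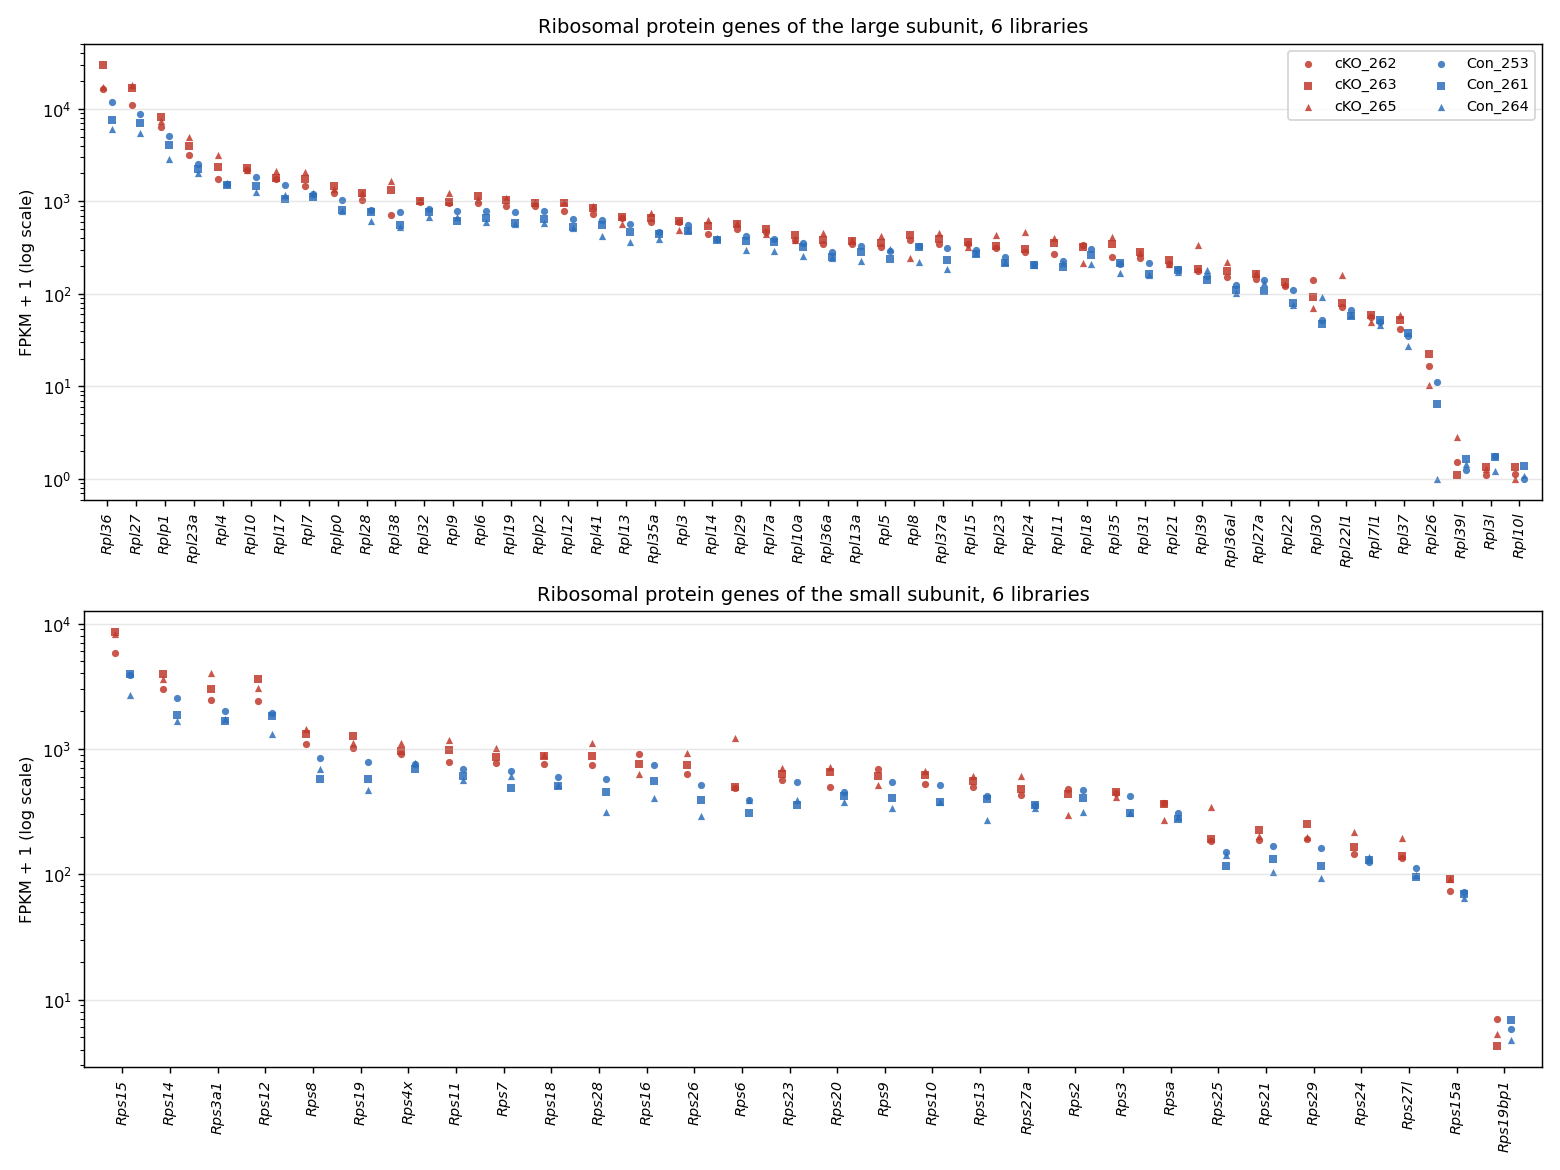
FPKM + 1 on a log axis for the large (top) and small (bottom) subunit genes, sorted by mean level; 3 members are not drawn. Red symbols are the 3 cKO libraries and blue symbols the 3 Con libraries, 1 symbol shape per library. In most genes the red symbols all lie above the blue ones, and the paralogs Rpl39l, Rpl3l and Rpl10l lie near the bottom of the axis.

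Sequence features at the annotated starts were counted in the core genes. RefSeq promoter windows (GRCm38.p6, 250 bases before to 50 after the start) were found for 55 of the 75 core genes, in 64 windows. In 12 windows (18.8%) the annotated start was a C that began an unbroken run of at least 5 C or T, against 2.51% of all 32851 windows. The following 30-base windows are centred on that start and cover both ends of the fold changes, read 5′ to 3′ on the gene's strand. The capitals mark the pyrimidine run.
Rpl38, chr11:114668565-114668594, plus strand: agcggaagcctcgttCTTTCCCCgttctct
Rps6, chr4:86857353-86857382, minus strand: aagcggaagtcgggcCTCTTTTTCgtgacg
Rpl35, chr2:39005117-39005146, minus strand: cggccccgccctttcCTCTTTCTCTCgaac
Rps15a, chr7:118116133-118116162, minus strand: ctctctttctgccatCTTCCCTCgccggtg
Rpl15, chr14:18270972-18271001, minus strand: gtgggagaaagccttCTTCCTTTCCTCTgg
The log2 fold changes of these 5 genes were 0.93, 0.88, 0.75, 0.32 and 0.29 in that order. The 12 genes with such a run had a median log2 fold change of 0.62 (range 0.29 to 0.93), and the 43 other core genes in the table a median of 0.61 (range 0.01 to 1.92). A run had to begin exactly at the annotated start, so a start annotated a few bases away would be missed. The 43 genes were therefore not shown to lack a tract.

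The letters CCGGAAG on either strand, a sequence bound by ETS-family factors, occurred in 24 of the 64 core windows (37.5%), against 8.86% of all windows. CTTTCC occurred in 32 of the 64 windows against 26.56% of all windows, GGGCGG in 60.9% against 35.66%, AAGATGG in 15.6% against 6.34% and TATAAA in 9.4% against 13.62%. The CTTTCC letters can lie within a pyrimidine run. Matches are shown for core genes with large and small fold changes, with the letters of the match in capitals as read on the gene's strand.
Rps26, chr10:128626702-128626731, minus strand: ttaatcttccgCCGGAAGgttaaatagttc
Rpl19, chr11:98026660-98026689, plus strand: acttagcgtgaCTTCCGGctacccagagga
Rpsa, chr9:120127567-120127596, plus strand: cgccccagctaCTTCCGGcctggggtctgt
Rps2, chr17:24719925-24719954, plus strand: atttatacgtcCTTCCGGctggtgtagggc
Their log2 fold changes were 0.96, 0.65, 0.21 and 0.01 in that order. The 23 core genes with the letters had a median log2 fold change of 0.63, and the 32 without them a median of 0.58. A match is a description of the window, and binding was not measured.

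Among large subunit genes, the highest levels and some of the largest fold changes fell on the same 3 genes. Rpl36, a protein of the large subunit, had 16547, 29915 and 16999 FPKM in cKO libraries, against 11863, 7472 and 6076 FPKM in Con libraries. All 3 cKO values were above all Con values, with cKO_263 far above the other two. The log2 fold change was 1.32 ± 0.32 (SE, limma adjusted p = 0.149). Rpl27, mutated in some patients with Diamond-Blackfan anaemia, an inherited failure of red cell production, had 11009, 16734 and 18143 FPKM in cKO libraries, against 8699, 7043 and 5425 FPKM in Con libraries. The groups did not overlap, and the log2 fold change was 1.11 ± 0.26 (SE, limma adjusted p = 0.141).

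Rplp1 belongs to the P stalk, the flexible arm of the large subunit that recruits and activates translation factors. Rplp1 had 6339, 8243 and 7343 FPKM in cKO libraries, against 5068, 4082 and 2881 FPKM in Con libraries, and a log2 fold change of 0.90 ± 0.24 (SE). Its partner Rplp2 had 887, 955 and 971 FPKM in cKO libraries, against 790.1, 637 and 576 FPKM in Con libraries, and a log2 fold change of 0.50 ± 0.16 (SE). In both genes Con_253 was the Con library nearest to the cKO values. Rplp0, the stalk base, had 1223, 1459 and 1347 FPKM in cKO libraries, against 1033, 806 and 779 FPKM in Con libraries. Rpl12, which anchors the stalk to ribosomal RNA, had 782, 956 and 989 FPKM in cKO libraries, against 650.3, 525 and 519 FPKM in Con libraries. All 4 stalk genes were without overlap and cKO_262 was the lowest cKO library in each. Their limma adjusted p ranged from 0.142 to 0.223.

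Rpl5 and Rpl11 form a particle with 5S ribosomal RNA and can bind the p53 regulator Mdm2 when ribosome assembly fails. Rpl5 had 319, 356 and 423 FPKM in cKO libraries, against 286, 240.0 and 303 FPKM in Con libraries. Rpl11 had 266, 349 and 402 FPKM in cKO libraries, against 225, 196 and 216 FPKM in Con libraries. Neither overlapped, and cKO_265 was the highest library for both. The log2 fold changes were 0.40 ± 0.16 for Rpl5 and 0.66 ± 0.18 for Rpl11 (SE), with limma adjusted p of 0.301 and 0.169.

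Rpl26 had the largest log2 fold change of the family and the least certain value. It encodes a protein at the rim of the exit tunnel and had 15.53, 21.27 and 9.461 FPKM in cKO libraries, against 10.08, 5.486 and a listed 0 FPKM in Con libraries. The cKO_265 value lay below the Con_253 value, so the groups overlapped. The log2 fold change was 1.92 ± 0.77 (SE, limma adjusted p = 0.298) and ranged from 0.89 to 2.62 when each library was left out, so the listed 0 weighs on it. Rpl38, needed for translation of certain homeobox mRNAs in mouse embryos, had 710.3, 1310.4 and 1664 FPKM in cKO libraries, against 771, 553 and 530 FPKM in Con libraries. Its cKO_262 value lay below that of Con_253, and the log2 fold change was 0.93 ± 0.31 (SE, limma adjusted p = 0.228).

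The core large subunit genes with the smallest fold changes were Rpl18, Rpl3, Rpl8 and Rpl21. Rpl18 had 338, 321 and 214 FPKM in cKO libraries, against 304, 260 and 212 FPKM in Con libraries. Rpl3, which reaches the peptidyl transferase centre, had 599, 615 and 490.1 FPKM in cKO libraries, against 548, 478 and 494 FPKM in Con libraries. Rpl8, another protein close to that centre, had 383, 430.4 and 241 FPKM in cKO libraries, against 328, 319 and 221 FPKM in Con libraries. In all 3 genes cKO_265 was the lowest cKO library and the groups overlapped. Rpl21 had 209, 230.1 and 209 FPKM in cKO libraries, against 183, 178 and 169.9 FPKM in Con libraries, without overlap. Log2 fold changes were 0.16 ± 0.21, 0.16 ± 0.15, 0.26 ± 0.25 and 0.28 ± 0.13 (SE) for Rpl18, Rpl3, Rpl8 and Rpl21. Without cKO_265 the first 3 were 0.36, 0.26 and 0.51, and without Con_264 they were 0.02, 0.14 and 0.08. All 4 turned negative when libraries were scaled to the same sum, and the first 3 also after quantile normalization.

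In the small subunit, Rps15 combined the highest level with the largest fold change. Rps15, a protein of the subunit's head, had 5868, 8544 and 8317 FPKM in cKO libraries, against 3871, 3940.1 and 2696 FPKM in Con libraries. The lowest cKO value was well above the highest Con value, and the log2 fold change was 1.11 ± 0.23 (SE, limma adjusted p = 0.124). With libraries scaled to the same sum it was the only small subunit gene called, with a log2 fold change of 0.81. The locus of Rps15 in the tables was 399 times as long as its RefSeq gene.

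Rps28, Rps26 and Rps19 followed Rps15, and all 3 are on the list of Diamond-Blackfan anaemia genes. Rps28 had 742, 873 and 1109 FPKM in cKO libraries, against 574, 449 and 313 FPKM in Con libraries. Rps26, which lines the mRNA exit channel, had 627, 743 and 932 FPKM in cKO libraries, against 516, 392.4 and 289 FPKM in Con libraries. Rps19, needed for maturation of the small subunit RNA, had 1024, 1272 and 1114 FPKM in cKO libraries, against 788, 572 and 466 FPKM in Con libraries. None of the 3 overlapped, and Con_264 was the lowest library in each. Log2 fold changes were 1.05 ± 0.24, 0.96 ± 0.24 and 0.93 ± 0.21 (SE), with limma adjusted p of 0.135, 0.152 and 0.126 for Rps28, Rps26 and Rps19. Of 17 tested genes on the anaemia list, 15 did not overlap with cKO above Con, against 63 of all 81 tested members and 9.59% of all tested genes, and the median log2 fold change was 0.66, against 0.61 over all members.

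Rps14, a protein of the subunit's platform, had 3026, 3943 and 3606 FPKM in cKO libraries, against 2531, 1854 and 1656 FPKM in Con libraries. Rps3a1, which contacts initiation factors, had 2476, 2979 and 4037 FPKM in cKO libraries, against 2019, 1665 and 1719 FPKM in Con libraries. Neither overlapped, and the log2 fold changes were 0.82 ± 0.21 and 0.79 ± 0.21 (SE), with limma adjusted p of 0.154 and 0.167.

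Rps2, at the mRNA entry channel, was the core gene with no difference in mean. It had 476, 436 and 298 FPKM in cKO libraries, against 471, 408 and 314 FPKM in Con libraries, and both groups covered nearly the same range. The log2 fold change was 0.01 ± 0.22 (SE, limma adjusted p = 0.986), and it turned negative under 5 of the alternatives. Rpsa, also known as the laminin receptor, had 369.7, 365 and 272 FPKM in cKO libraries, against 308, 273 and 284 FPKM in Con libraries. The groups overlapped through a low cKO_265, and the log2 fold change of 0.21 ± 0.16 (SE) was 0.35 without cKO_265, 0.13 without cKO_262 and negative under scaling to the same sum and quantile normalization. Rps15a, a small subunit protein, had 73.05, 91.24 and 91.37 FPKM in cKO libraries, against 70.67, 68.42 and 63.62 FPKM in Con libraries. It did not overlap, with a log2 fold change of 0.32 ± 0.14 (SE).

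The 4 members on the X chromosome were Rpl10, Rpl36a, Rpl39 and Rps4x. Rpl10, which joins the subunit late in assembly, had 2205, 2274 and 2174 FPKM in cKO libraries, against 1826, 1477 and 1261 FPKM in Con libraries. Rpl36a had 341, 382 and 452 FPKM in cKO libraries, against 286, 247 and 244 FPKM in Con libraries. In both genes every cKO value was above every Con value. Rpl39, a small protein of the exit tunnel, had 175, 186 and 336 FPKM in cKO libraries, against 156, 140.3 and 182 FPKM in Con libraries. Rps4x had 917, 962 and 1116 FPKM in cKO libraries, against 759, 687 and 775 FPKM in Con libraries. Only Rpl39 of these 4 overlapped, through a Con_264 value above that of cKO_262. Log2 fold changes were 0.56 ± 0.18, 0.59 ± 0.15, 0.49 ± 0.25 and 0.43 ± 0.15 (SE) in the order given, and that of Rps4x turned to -0.03 after quantile normalization. That of Rpl39 was 0.19 without cKO_265. The labels used here give no sex, and 4 Y-linked genes summed to 12.56 FPKM in Con_253, a sum that did not exceed 0.11 FPKM elsewhere.

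Of the 6 paralogs and look-alikes tested, 3 did not overlap, with cKO above Con, against 9.59% of all tested genes. Rpl22l1 is the paralog of Rpl22, a ribosomal protein needed for development of alpha-beta T cells in mice. Rpl22l1 had 70.77, 79.35 and 159 FPKM in cKO libraries, against 66.80, 56.79 and 58.26 FPKM in Con libraries. The ratio of Rpl22l1 to Rpl22 was 0.58, 0.59 and 1.25 in cKO libraries, against 0.61, 0.72 and 0.79 in Con libraries, so cKO_265 stood apart from the other 5 libraries. The log2 fold change of Rpl22l1 was 0.66 ± 0.28 (SE), and 0.305 without cKO_265. Rpl36al, a close relative of Rpl36a, had 152, 177 and 219 FPKM in cKO libraries, against 125, 109 and 102 FPKM in Con libraries. Its ratio to Rpl36a was 0.45, 0.46 and 0.48 in cKO libraries, against 0.44, 0.44 and 0.42 in Con libraries. Sharing of reads within these pairs leaves the ratios uncertain.

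Rps27l, a paralog of Rps27 that p53 can induce, had 135, 139 and 193 FPKM in cKO libraries, against 110.4, 94.69 and 98.24 FPKM in Con libraries, without overlap. Rpl7l1 had 54.95, 58.05 and 48.92 FPKM in cKO libraries, against 48.37, 51.05 and 45.37 FPKM in Con libraries, with overlap. Its log2 fold change of 0.16 ± 0.13 (SE) turned negative with libraries scaled to the same sum. Rps19bp1, a binding partner of Rps19, had 6.075, 3.234 and 4.298 FPKM in cKO libraries, against 4.880, 5.834 and 3.801 FPKM in Con libraries. Its log2 fold change was -0.09 ± 0.23 (SE) and came to 0.01 after quantile normalization. Rpl39l was at most 1.872 FPKM in cKO and 0.657 FPKM in Con libraries. Rpl10l and Rpl3l, known from testis and from muscle, were at most 0.360 FPKM in cKO and 0.787 FPKM in Con libraries and were not tested.

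The 6 libraries were not spread evenly over the family. Relative to the Con mean, the median log2 difference over the 81 genes was 0.44, 0.59 and 0.76 in cKO_262, cKO_263 and cKO_265, against 0.19, -0.03 and -0.16 in Con_253, Con_261 and Con_264. The highest of the 6 values was in cKO_265 for 48 genes, in cKO_263 for 26 and in cKO_262 for 7. The lowest was in Con_264 for 51 genes and in Con_261 for 25. Con_253 was the highest Con library for 66 genes, and cKO_262 the lowest cKO library for 61. Of the 18 tested genes whose groups overlapped, 13 no longer did once cKO_265 was set aside, among them Rpl13, Rps9 and Rps16. Setting it aside also raised the share of all tested genes without overlap and with cKO above Con to 15.5%, against 9.59% with all libraries. Leaving out a cKO library can only end such overlaps. Among cKO libraries, cKO_265 reached the Con range most often, in 15 of the 81 genes, so the count of 13 adds no support.

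Transcript length, GC content and mean level, which the choice did not use, were compared with these patterns over the 75 core genes. The log2 fold change had a Pearson correlation of -0.47 with log2 transcript length (Spearman -0.52), so shorter transcripts had larger values. By length, the 25 shortest had a median log2 fold change of 0.71, the next 25 a median of 0.61 and the 25 longest a median of 0.45. Libraries of the Con group also differed by length. Relative to the Con mean, medians from short to long were 0.26, 0.19 and 0.15 in Con_253. In Con_264 they were -0.26, -0.16 and -0.08. The difference of Con_264 from the other Con libraries had a correlation of 0.22 with log2 transcript length (Spearman 0.34). That of cKO_265 from the other cKO libraries had one of -0.12 (Spearman -0.15). The difference of cKO_265 from the other cKO libraries had a correlation of -0.43 with GC content (Spearman -0.47), and that of Con_264 from the other Con libraries a correlation of -0.35 (Spearman -0.53). All genes share the same 6 libraries, so these are descriptions over genes. The groups did not overlap in 23 of the 25 genes lowest in GC, in 21 of the middle 25 and in 16 of the 25 highest, against 9.59% of all tested genes. The median log2 fold change ran the other way, at 0.57, 0.63 and 0.64 from low to high GC, with a correlation of 0.19 between log2 fold change and GC (Spearman 0.15). With the log2 of the mean FPKM, the log2 fold change had a correlation of 0.20 (Spearman 0.38).

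Core genes differed in how closely they followed the family mean across the 6 libraries. Correlations were taken on log2(FPKM + 1) with the mean of the core genes, and each gene was left out of the mean it was compared with. Rpl19, Rps14 and Rpl6 were closest, at 0.99 each over 6 libraries. Rpl6 had 966, 1145 and 1052 FPKM in cKO libraries, against 784, 656 and 595 FPKM in Con libraries. Rpl18, Rpl30 and Rps2 were farthest, at 0.34, 0.31 and 0.10. Rpl30 had 140.5, 92.27 and 69.90 FPKM in cKO libraries, against 51.51, 46.78 and 91.42 FPKM in Con libraries, so Con_264 lay inside the cKO range. Its log2 fold change was 0.67 ± 0.31 (SE) and ranged from 0.405 to 0.965 when each library was left out.

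Rps24 and Rpl19 were each listed in several rows at 1 locus, and their rows differed from each other. Rps24, a small subunit protein with known splice variants, had a main row of 128, 149.9 and 197 FPKM in cKO libraries, against 100.2, 106 and 114 FPKM in Con libraries. Its next row had 12.91, 10.41 and 14.60 FPKM in cKO libraries, against 19.50, 22.12 and 19.36 FPKM in Con libraries. The main row was higher in every cKO library than in any Con library, and the next row was lower in every cKO library than in any Con library. The next row made up 8.98%, 6.36% and 6.76% of Rps24 in cKO libraries, against 15.6%, 17.1% and 14.2% in Con libraries. Tested as features of their own, an alternative added after seeing the data, the main row had a log2 fold change of 0.55 ± 0.18 and the next row one of -0.65 ± 0.16 (SE), with limma adjusted p of 0.292 and 0.227. The tables do not say which transcripts a row stands for.

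Rpl19 behaved differently. Its main row held 76.4%, 69.5% and 18.9% of the gene in cKO libraries, against 46.2%, 59.4% and 90.6% in Con libraries, with no order by group. The sum of its rows was 891, 1033 and 1081 FPKM in cKO libraries, against 769.7, 587 and 569 FPKM in Con libraries. The sum did not overlap, with a log2 fold change of 0.65 ± 0.17 (SE, limma adjusted p = 0.165).

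**Figure D5:**
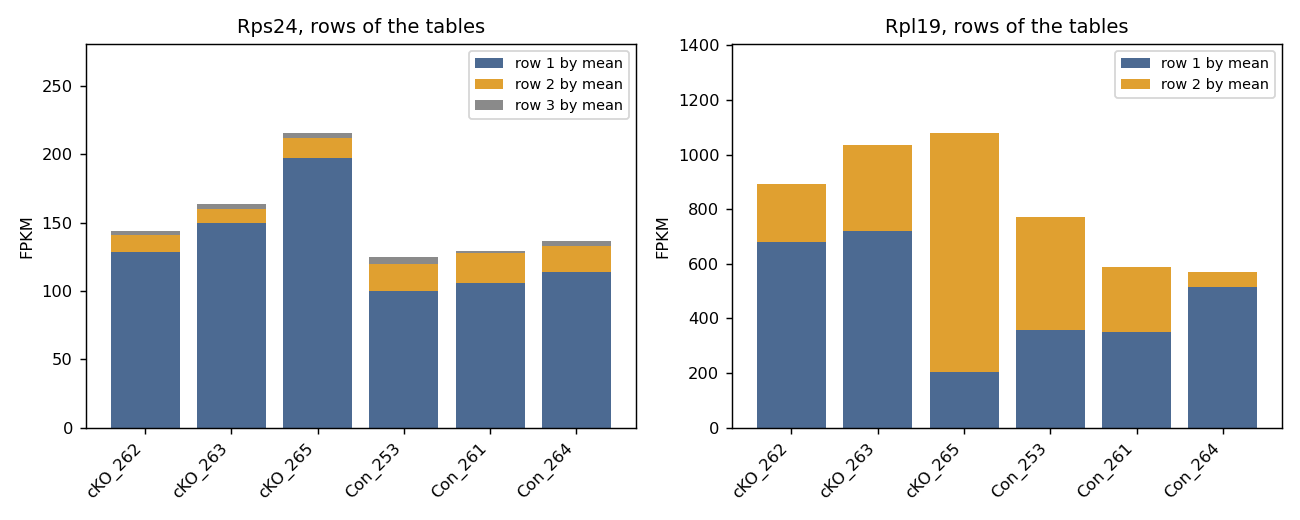
FPKM of the separate table rows of Rps24 (left) and Rpl19 (right), stacked, with 1 bar per library, the 3 cKO libraries left of the 3 Con libraries. The second row of Rps24 is thinner in every cKO library (10.41 to 14.60 FPKM) than in any Con library (19.36 to 22.12 FPKM), while the rows of Rpl19 swing between libraries of the same group.

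The 3 ribosomal protein genes tested outside the naming rule also had higher mean values in cKO. Gnb2l1, the small subunit scaffold protein RACK1, had 852, 853 and 817 FPKM in cKO libraries, against 688, 648 and 585 FPKM in Con libraries. Its groups did not overlap, and the log2 fold change was 0.40 ± 0.14 (SE), turning to -0.06 after quantile normalization. Fau, which encodes a small subunit protein fused to a ubiquitin-like protein, had a log2 fold change of 0.37 ± 0.21 (SE) and overlapped.

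The genes listed as elongation factors, with Tpt1 and Eef1e1 among them, had a smaller median fold change than the ribosomal protein genes. Their starts were not checked for a pyrimidine tract. Of 8 tested, none was called, and 1 was higher at an unadjusted p under 0.05, against 6.81% of all tested genes. The median log2 fold change was 0.07. Leaving out 1 library at a time moved this median between -0.05 (without cKO_262) and 0.19 (without cKO_265). Eef1a1, which delivers aminoacyl-tRNA, had 2662, 2436 and 2309.6 FPKM in cKO libraries, against 2615, 2704 and 2782 FPKM in Con libraries. Eef2, which drives translocation, had 703, 567 and 391.5 FPKM in cKO libraries, against 668, 648 and 587 FPKM in Con libraries. Both overlapped, with log2 fold changes of -0.13 ± 0.15 and -0.23 ± 0.21 (SE), and they were named after their values were seen. Eef1b2, the exchange factor for eEF1A, had 133, 154 and 179.9 FPKM in cKO libraries, against 114, 107 and 115 FPKM in Con libraries, without overlap and with a log2 fold change of 0.46 ± 0.15 (SE, limma adjusted p = 0.225). Eef1e1 had a log2 fold change of 0.22 ± 0.18 (SE), which turned negative with libraries scaled to the same sum. The difference between elongation factors and ribosomal protein genes was not tested.

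Of 28 initiation factors tested, none was called and the median log2 fold change was 0.18. At an unadjusted p under 0.05, 2 were higher and none lower, against 6.81% higher and 7.82% lower of all tested genes. The higher count was thus near the share over all genes. The 2 higher were Eif4b, a helper of the helicase that unwinds mRNA leaders, at 0.40 ± 0.13, and Eif3l, at 0.34 ± 0.13 (SE). Of 35 ribosome biogenesis genes tested, none was called and the median was 0.20. At an unadjusted p under 0.05, 10 were higher and none lower, against 6.81% higher and 7.82% lower of all tested genes. Nhp2, part of the particles that convert uridine to pseudouridine in ribosomal RNA, had 30.02, 32.75 and 37.22 FPKM in cKO libraries, against 20.87, 21.39 and 15.13 FPKM in Con libraries. Ddx21, a nucleolar helicase, had 51.73, 53.29 and 55.71 FPKM in cKO libraries, against 37.92, 38.59 and 36.60 FPKM in Con libraries. Neither overlapped, and the log2 fold changes were 0.78 ± 0.17 and 0.50 ± 0.12 (SE), with limma adjusted p of 0.125 and 0.154.

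Of 18 genes of growth signalling to ribosomes, none was called and the median was 0.06. At an unadjusted p under 0.05, 2 were higher and 2 lower, against 6.81% higher and 7.82% lower of all tested genes. Without overlap, 2 of the 18 were higher and 2 lower, near the 9.59% higher and 11.9% lower of all tested genes. The 2 genes given first below were named for the smallest unadjusted p of the list. Rps6kb2, a kinase of the ribosomal protein Rps6, had 10.40, 9.733 and 7.389 FPKM in cKO libraries, against 13.60, 14.95 and 13.10 FPKM in Con libraries. Larp1 had 55.90, 51.29 and 56.46 FPKM in cKO libraries, against 46.31, 40.98 and 43.67 FPKM in Con libraries. Neither overlapped, and they moved in opposite directions, with log2 fold changes of -0.56 ± 0.17 and 0.32 ± 0.13 (SE) and limma adjusted p of 0.202 and 0.306. Rps6 itself, the substrate of the S6 kinases, which was named after its values were seen, had 484, 497 and 1211 FPKM in cKO libraries, against 390.0, 308 and 389 FPKM in Con libraries. All cKO values were above all Con values, and cKO_265 was far above the rest.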

How the data were processed

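RNA of mTECs from 3 cKO and 3 Con mice was sequenced, and the authors deposited 1 table of FPKM values per library. Reads had been handled with Bowtie2 2.2.5 and with Cufflinks on build mm10, per the submitters' processing notes. Not given in the sources used here were the Cufflinks version, the annotation, strand use, how reads shared with pseudogenes were treated, and whether libraries were scaled to each other. The tables hold no counts, so depth is unknown and no counting interval can be given. Whole-transcriptome amplification can favour transcripts by length and base composition.

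From each table of 25025 rows, 44 rows of 25 symbols turned into dates were dropped and rows of 1 symbol were summed. For genes averaging 0.5 FPKM or more, limma 3.58.1 (R 4.3.3; lmFit, then eBayes with a trend, 2-sided, Benjamini-Hochberg over all tested genes) was run on log2(FPKM + 1), where the pseudocount of 1 makes changes of low genes look smaller. The script was tested on simulated data with shifts larger than the members' median and with noise drawn separately for each gene. That test therefore does not cover shifts of the usual size seen here, or genes that move together. The groups share no mouse numbers, so nothing was paired, and p-values cover the spread between 3 mice per group. Sums over members got no test, and 3 against 3 libraries cannot give an exact permutation p below 0.1. Transcript length and GC content are medians over principal transcripts of GENCODE annotation for GRCm38, and promoter sequences are from RefSeq (GRCm38.p6). Loci were read from the tables (mm10).

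The members and gene lists were chosen with earlier results of these data known. Genes named are, in each subunit, the 3 highest in level and the 4 largest and 4 smallest log2 fold changes among core genes, with the paralogs, the P stalk, the 5S particle and the X-linked members. The rule adds the 3 core genes most and least like the core mean, the 2 smallest p in each related list, and Kdm6b; some genes that the rule names are not reported here. Markers of other cell types that a sort could hold were summed per library.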

Additional observations from a re-analysis of the deposited data

How the results depend on the processing

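No paired analysis was possible because the mouse numbers of the groups differ. Over 17 alternatives (pseudocount, filter, scaling, weights, rows, libraries left out), 48 named genes gave 799 values, of which 720 kept direction and side of the threshold. Another 57 passed the threshold, nearly all with arrayWeights (39) or with the fit of genes of at least 100 FPKM (17), and 22 changed sign. The causes were not tested, and unknown depth limits every value.

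With arrayWeights, calls were 1367 higher and 1658 lower over all genes, 43 large and 29 small subunit genes higher, 2 ribosomal proteins outside the rule higher, 1 elongation factor higher, initiation factors 4 higher and 1 lower, 12 biogenesis genes higher, and growth signalling 2 higher and 2 lower; Rpl39l turned to -0.33. With the fit of genes of at least 100 FPKM, calls were 83 higher over all genes, 15 large, 11 small and 1 outside the rule, and the single remaining biogenesis and growth genes had log2 fold changes of 0.45 and 0.19. With a filter of 5 FPKM, the biogenesis and growth medians were 0.26 and -0.021. With median centring, initiation, biogenesis and growth medians were 0.26, 0.28 and 0.14.

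With quantile normalization, 5 genes were called higher over all genes. In the large subunit 14 genes were higher at an unadjusted p under 0.05, 20 did not overlap and the median was 0.19; in the small subunit these were 13, 12 and 0.22. Medians were -0.24 for elongation, -0.009 for initiation and -0.059 outside the rule. Signs changed for Rpl18 (-0.10), Rpl3 (-0.22), Rpl8 (-0.033), Rps2 (-0.29), Rpsa (-0.076), Rps4x (-0.032), Gnb2l1 (-0.063) and Rps19bp1 (0.006). Non-overlap with cKO above Con then held for 9.13% of all genes. The share of all genes at that unadjusted p under quantile normalization is not given here.

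Scaling each library to a sum of 1000000 shifted the median of all genes to -0.30. Whether the deposited or the scaled values are nearer to the levels in the cells is not known. With this scaling, 10 genes were called higher and 197 lower over all genes, and 1 small subunit gene (Rps15) was called. In the large subunit 20 were higher at an unadjusted p under 0.05, 24 did not overlap and the median was 0.31; in the small subunit 12 were higher at that p and the median was 0.32. Non-overlap with cKO above Con then held for 2.25% of all genes. The share of all genes at that unadjusted p under this scaling is not given here. Medians were -0.22 for elongation, -0.12 for initiation, -0.078 for biogenesis, -0.22 for growth and 0.10 outside the rule. Signs changed for Rpl18 (-0.14), Rpl3 (-0.14), Rpl8 (-0.038), Rpl21 (-0.015), Rps2 (-0.29), Rpsa (-0.093), Rpl7l1 (-0.14) and Eef1e1 (-0.031). As shares of the library sum, the subunit ratios of cKO to Con were 1.52 for large and 1.40 for small. In summed FPKM, not shares, leaving out Rpl36, Rpl27 and Rplp1 took the large subunit ratio from 1.86 to 1.52. In shares, it took the ratio over all members from 1.48 to 1.31.

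Leaving out each library in turn, calls over all genes ranged from 1 to 9 higher and from 1 to 14 lower, with none among the members. Median log2 fold changes ranged from 0.52 to 0.70 for large and from 0.50 to 0.72 for small subunit genes, from 0.12 to 0.26 for biogenesis, from -0.016 to 0.045 for growth, from 0.12 to 0.19 for initiation and from -0.05 to 0.19 for elongation. Among named members, Rpl39, Rpl22l1 and Rpl8 ranged from 0.19 to 0.66, from 0.305 to 0.885 and from 0.078 to 0.511. Rps2 turned to -0.15, -0.12 and -0.059 without Con_264, cKO_262 and cKO_263, and Rps19bp1 to 0.027 and 0.083 without Con_261 and cKO_263. Con_253 and cKO_265 reached the other group's range in 15 of the 81 members each, more than any other library. Setting both aside could therefore be expected to end most overlaps, so the next counts add no support. Without both Con_253 and cKO_265, 47 of 48 large and 31 of 32 small subunit genes did not overlap, against 21.9% of all genes. Over all genes, 4 were then called lower, and the elongation and initiation medians were 0.23 and 0.12.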
